A study of Mus musculus with 16 samples.

Results

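The clustered histone genes of the mouse were followed in 16 RNA-seq libraries of 4T1 tumors. Members were all gene names of the form Hist1h, Hist2h, Hist3h or Hist4h in the tables of tumors with and without paclitaxel. The rule found 59 of the 18137 gene names in these tables. Of them, 58 were in the liver table, 55 in the fat pad table and 54 in both. By the type of histone they encode, 6 were H1, 16 H2A, 15 H2B, 10 H3 and 12 H4 genes.

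Histones H2A, H2B, H3 and H4 form the protein core on which DNA is wound, and H1 binds the linker between cores. The clustered genes are known mainly for expression in S phase, when new DNA needs new histones. Their messengers usually end in a short stem-loop in place of a poly(A) tail. Stem-loop binding protein holds that loop, and a cut behind it makes the 3′ end. Some of these genes also give polyadenylated messengers, known above all from cells that have left the cycle. Here RNA was selected on oligo(dT) beads, per the labels' protocols, so messengers that end at the stem-loop were largely outside the measurement. The levels below are those of the RNA that the beads kept. They are not the total histone mRNA of the tumors, and total histone mRNA was not measured.

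The study asked how liver metastases and primary tumors of a triple-negative breast cancer model respond to chemotherapy. 4T1 is a mouse mammary carcinoma line. It was grown in wild-type female BALB/c mice, 6 weeks old at the start, with 200000 cells placed under the capsule of the left liver lobe or 400000 cells in a mammary fat pad, a site the labels call subcutaneous. Paclitaxel, which stabilises microtubules and blocks mitosis, was injected intraperitoneally at 10 mg/kg, 5 times a week for 2 weeks, while control mice received PBS. The groups were liver tumors with paclitaxel (post_Liver, n = 5), liver tumors without it (pre_Liver, n = 5), fat pad tumors with paclitaxel (post_SC, n = 3) and fat pad tumors without it (pre_SC, n = 3). All tumors grew for 15 days, were digested with enzymes and were frozen as cells. The labels do not say whether each library came from its own mouse, so the spread behind each p-value is that between libraries and may be technical. Nor do they say whether untreated tumors were sampled before dosing or given PBS, and site cannot be told apart from the number of cells implanted.

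Levels are given as TPM, transcript abundance corrected for length and scaled to a fixed total, here over the 17426 genes shared by the liver and fat pad tables, which were normalized separately. Read depth is not given in the sources used here, and the rounded values do not give it. Liver libraries held very different amounts of host liver RNA. The summed level of 39 hepatocyte genes was 6729 to 163666 TPM in post_Liver, 61403 to 254712 TPM in pre_Liver, 155 to 447 TPM in post_SC and 162 to 457 TPM in pre_SC. The libraries pre_Liver 4 and 5 stood apart, with the highest hepatocyte sums and the lowest sums of 26 DNA replication genes, 244 and 318 TPM. By the values of a further table of untreated libraries, these libraries also formed a batch of their own. The first batch of that adjustment held pre_Liver 1, 2 and 3 and the pre_SC libraries. What the batches were is not given, and in pre_Liver 4 and 5 batch cannot be told apart from hepatocyte or replication content. The libraries post_Liver 2 and 3 were the closest pair, with a correlation of 0.993 across genes, which are not independent replicates. In these bulk samples, fewer cells of a type and less RNA per cell cannot be told apart.

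All 59 members were found in the GENCODE M21 annotation of GRCm38, with 47 on chromosome 13, 9 on chromosome 3, 2 on chromosome 11 and 1 on chromosome 6. The stem-loop decides whether such a messenger can end without a tail, so its sequence was sought on the coding strand as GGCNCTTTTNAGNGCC, in the members in the whole annotated stretch after the stop codon. It was present in 37 members, each time within the first 150 bases, while 13 had fewer than 50 annotated bases after the stop codon and 9 had more but no match. Of 19309 other protein-coding genes with at least 150 annotated bases there, 2 held it in the first 150 (0.0104%). The form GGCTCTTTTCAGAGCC stood in 22 of the 37. The loops of members that carry the results are printed with the 12 bases before them, with the stem-loop in capitals, from GENCODE M21.
Hist1h2ap, chr13:21833029-21833056, minus strand: aaaaaaaaaaaaGGCTCTTTTCAGAGCC
Hist1h2ao, chr13:21810886-21810913, plus strand: aaaaaaaaaaaaGGCTCTTTTCAGAGCC
Hist2h2aa1, chr3:96246020-96246047, plus strand: agctcctaaaaaGGCTCTTTTCAGAGCC
Hist1h1c, chr13:23739500-23739527, plus strand: aacaatccaaaaGGCTCTTTTCAGAGCC
Hist1h4i, chr13:22040966-22040993, minus strand: atgctacttaaaGGCCCTTTTTAGGGCC
Hist1h4n, chr13:21831798-21831825, minus strand: ttctcaactaaaGGCCCTTTTCAGGGCC
Hist1h2ap and Hist1h2ao differ from the others in the encoded run of 12 A directly before the loop. A run of at least 12 A was found in the annotated transcripts of 3 members, and in 12.6% of the 21857 other protein-coding genes. Whether such a run was held by the beads was not tested.

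The annotated transcripts of these members also end at different distances behind the loop. Of the 37 with a loop, 17 had fewer than 100 annotated bases after it and 20 had 100 or more. Hist1h2ap ended 3 bases after its loop and Hist1h4n 31 bases after it, while Hist1h1c ran on for 840 bases, Hist1h4i for 330, Hist3h2a for 1643 and Hist2h4 for 1257. The median member had a mean level of 1.27 TPM in the class with the shorter end and 0.870 TPM in the class with the longer end. Hist1h2bc, Hist1h2br and Hist1h2bq, the H2B genes described below, have 2 exons and a stretch of 742 or 823 bases after the stop codon that held no match.

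Many members are near copies of each other, which limits what a value under 1 name means. Of all stretches of 100 bases in a transcript, over 50% recurred in another gene for 20 members. The coding sequences of Hist1h2ap and Hist1h2ao, 393 bases long, were identical, as were those of Hist2h2aa1 and Hist2h2aa2 and those of Hist1h2br and Hist1h2bq. Reads of such pairs can be split between the names in any proportion, and the sources used here do not say how the authors' counting handled them. Hist2h2aa1 also overlaps the annotated gene Gm20634, Hist3h2a overlaps Trim17 and Hist2h2bb overlaps Gm42743, each on the same strand.

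A few genes carried most of the measured histone RNA. Of the 59 members, 8 averaged 10 TPM or more over the 16 libraries and 32 averaged under 1 TPM. Only 8 of the 54 members in both tables were at 1 TPM or more in every library, and 39 were listed at 0 in at least 1 library. Hist1h2ap, Hist2h2aa1, Hist1h2bc, Hist1h1c and Hist3h2a together held 75.1 to 89.7% of the summed level in each library. H3 was the weakest type, with no member averaging 10 TPM.

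The summed level of the 54 shared members was 829.2, 982, 1098, 774 and 734 TPM in post_Liver, and 718, 969, 566, 492 and 550 TPM in pre_Liver. It was 395, 386 and 538 TPM in post_SC, and 675, 769 and 623 TPM in pre_SC. The fat pad groups did not overlap, and the treated libraries were the lower ones. The liver groups overlapped through pre_Liver 2. Clustered histones made up 0.0734 to 0.110% of all TPM in post_Liver, 0.0492 to 0.0969% in pre_Liver, 0.0386 to 0.0538% in post_SC and 0.0623 to 0.0769% in pre_SC. Without Hist1h2ap the sums were 438 to 575 TPM in post_Liver, 271 to 499 TPM in pre_Liver, 197 to 375 TPM in post_SC and 239 to 314 TPM in pre_SC, so that the fat pad groups then overlapped.

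**Figure D1:**
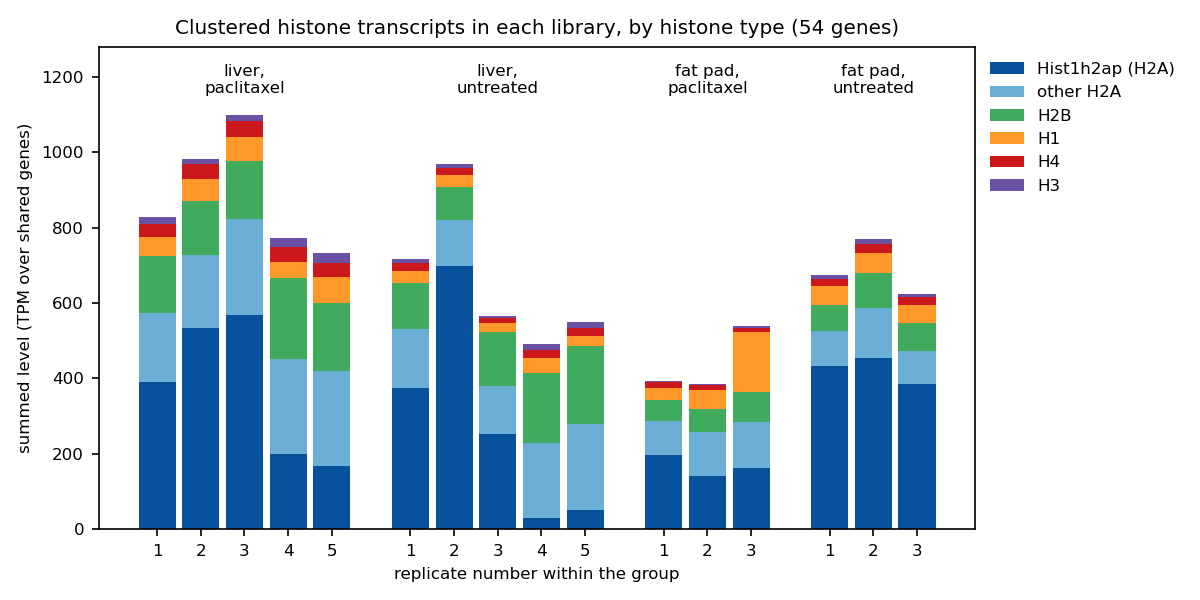
Summed level of the 54 clustered histone genes present in both tables, in TPM over shared genes, with 1 bar per library and colors for the histone types, Hist1h2ap being set apart from the other H2A genes. Hist1h2ap made up 6.24 to 72.0% of the sum in liver tumors without paclitaxel, and the highest bar, post_Liver 3, reached 1098 TPM.

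**Figure D2:**
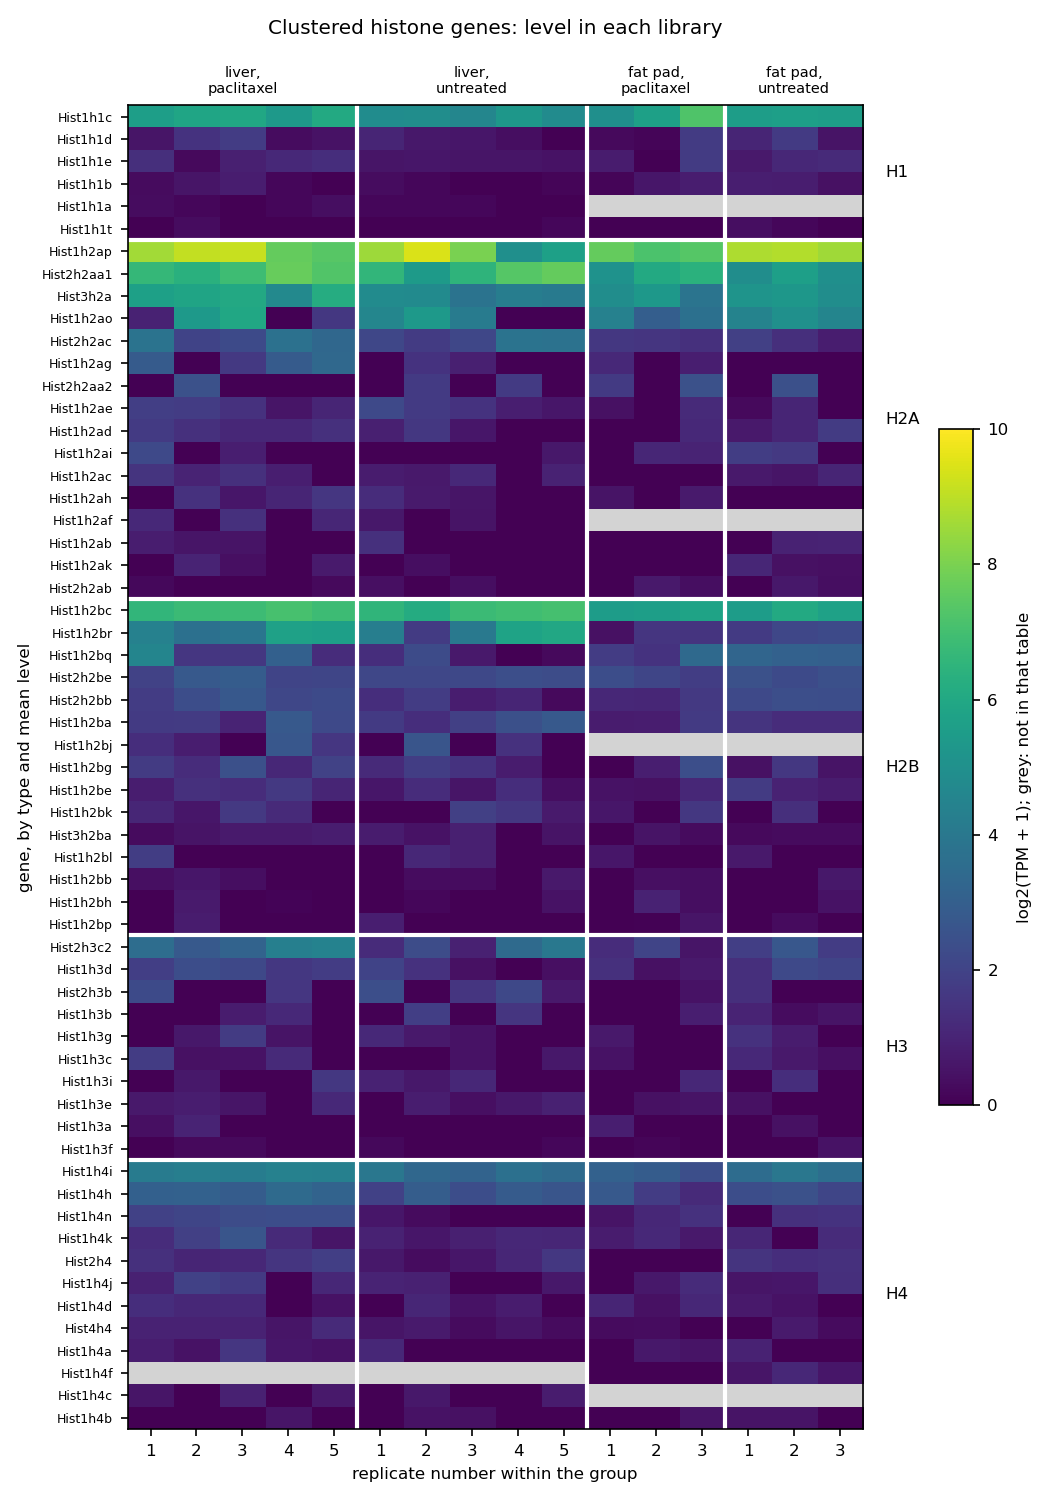
Level of each of the 59 members in each library as log2(TPM + 1), with genes ordered by type and by mean level and grey cells where a table does not hold the gene. A few bright rows, among them Hist1h2ap, Hist2h2aa1 and Hist1h2bc, stand over many rows near 0.

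Group differences were tested gene by gene with limma on log2(value + 1). A gene entered if it averaged 1 or more across the compared libraries. It was called if its p, adjusted by Benjamini-Hochberg over the genes tested, was under 0.05. In the fat pad, 2 of the 22 members that passed the filter were lower with paclitaxel (Hist1h2ap and Hist2h2bb) and 0 were higher, with an unadjusted p under 0.05 for 6 and 0 members. Of all 13366 genes tested, 4.29% were called lower and 2.68% higher. In 5 members the groups did not overlap, all lower with paclitaxel, beside 18.7% of all genes, so that share was near the background. The median log2 difference was −0.38 over the 22 members and −0.03 over all genes. Of the 22 members, 4 had a mean under 1 in 1 group only and passed through the other group. Hist1h3d, Hist1h2ai and Hist1h1d passed through the untreated libraries, and Hist1h2bg through the treated ones. With no filter, 4 of 55 members were called lower, beside 2.26% of genes, and the median was −0.18 over the members and −0.01 over all genes. With any 1 library left out, 1 to 3 members were called.

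In the liver, 4 of the 18 members that passed were higher with paclitaxel (Hist1h4n, Hist1h1c, Hist3h2a and Hist1h4i) and 0 were lower, with an unadjusted p under 0.05 for 8 and 0 members. Of all 13008 genes tested, 2.24% were called higher and 1.41% lower. The groups did not overlap in 4 members, all higher, beside 5.16% of all genes. The median log2 difference was 0.74 over the members and 0.37 over all genes. That shift of all genes depended on the scaling: with median-of-ratios scaling the median of all genes was 0.03, that of 16 members tested was 0.28, and 0 members were called, with 3 at an unadjusted p under 0.05. With no filter, 2 of 58 members were called higher, beside 1.72% of genes. The median was then 0.24 over the members and 0.22 over all genes. Of the 18 members, 5 had a mean under 1 without paclitaxel and passed through the treated libraries. The number called was 0 without post_Liver 1, 3 or 5 and 0 with post_Liver 2 and 3 averaged. It was 1 without both pre_Liver 4 and 5, and 7 without pre_Liver 2. Hist1h4n was under the filter with median-of-ratios scaling, with post_Liver 2 and 3 averaged and when any 1 treated library was left out. The counts in those settings leave Hist1h4n untested.

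Between untreated tumors, 2 of 22 members were higher in the liver (Hist1h2bc and Hist2h2aa1) and 4 lower (Hist1h2bq, Hist2h2bb, Hist1h1c and Hist3h2a). Of all 13727 genes tested, 15.4% were called higher in the liver and 33.5% lower, so the members' shares were below the background in both directions. Groups did not overlap in 1 member higher and 4 lower in the liver, beside 17% and 35.2% of all genes. The median log2 difference was −0.16 over the members and −0.52 over all genes. Of the 22 members, 6 had a mean under 1 at 1 site only and passed through the other site. With median-of-ratios scaling the median of all genes was −0.04, the calls over all genes were 3131 higher and 2635 lower against 2108 and 4598 without it, and 3 members were called higher and 2 lower. With 1 library left out the number called was 1 (without pre_SC 1 or 3) to 9 (without pre_Liver 2).

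The difference between the responses, liver minus fat pad, was tested as an interaction in 1 fit of all 16 libraries. It was positive for 4 of 26 members (Hist1h4i, Hist2h2bb, Hist2h4 and Hist1h4n) and negative for 0, with an unadjusted p under 0.05 for 10 and 0. Of all 13875 genes tested, 2.19% were called positive and 0.786% negative. The median was 0.97 over the members and 0.38 over all genes, and 0.61 and −0.03 with median-of-ratios scaling, under which 2 members were called and the calls over all genes were 185 positive and 128 negative, against 304 and 109 without it. With no filter, 4 of 54 members were called positive and 0 negative, beside 326 and 132 of all 17426 genes. The median was then 0.48 over the members and 0.26 over all genes. The number of members called was 3 without both pre_Liver 4 and 5, and 2 (without pre_SC 3) to 6 with 1 library left out. These 4 comparisons share libraries, so their results are not independent of each other.

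**Figure D3:**
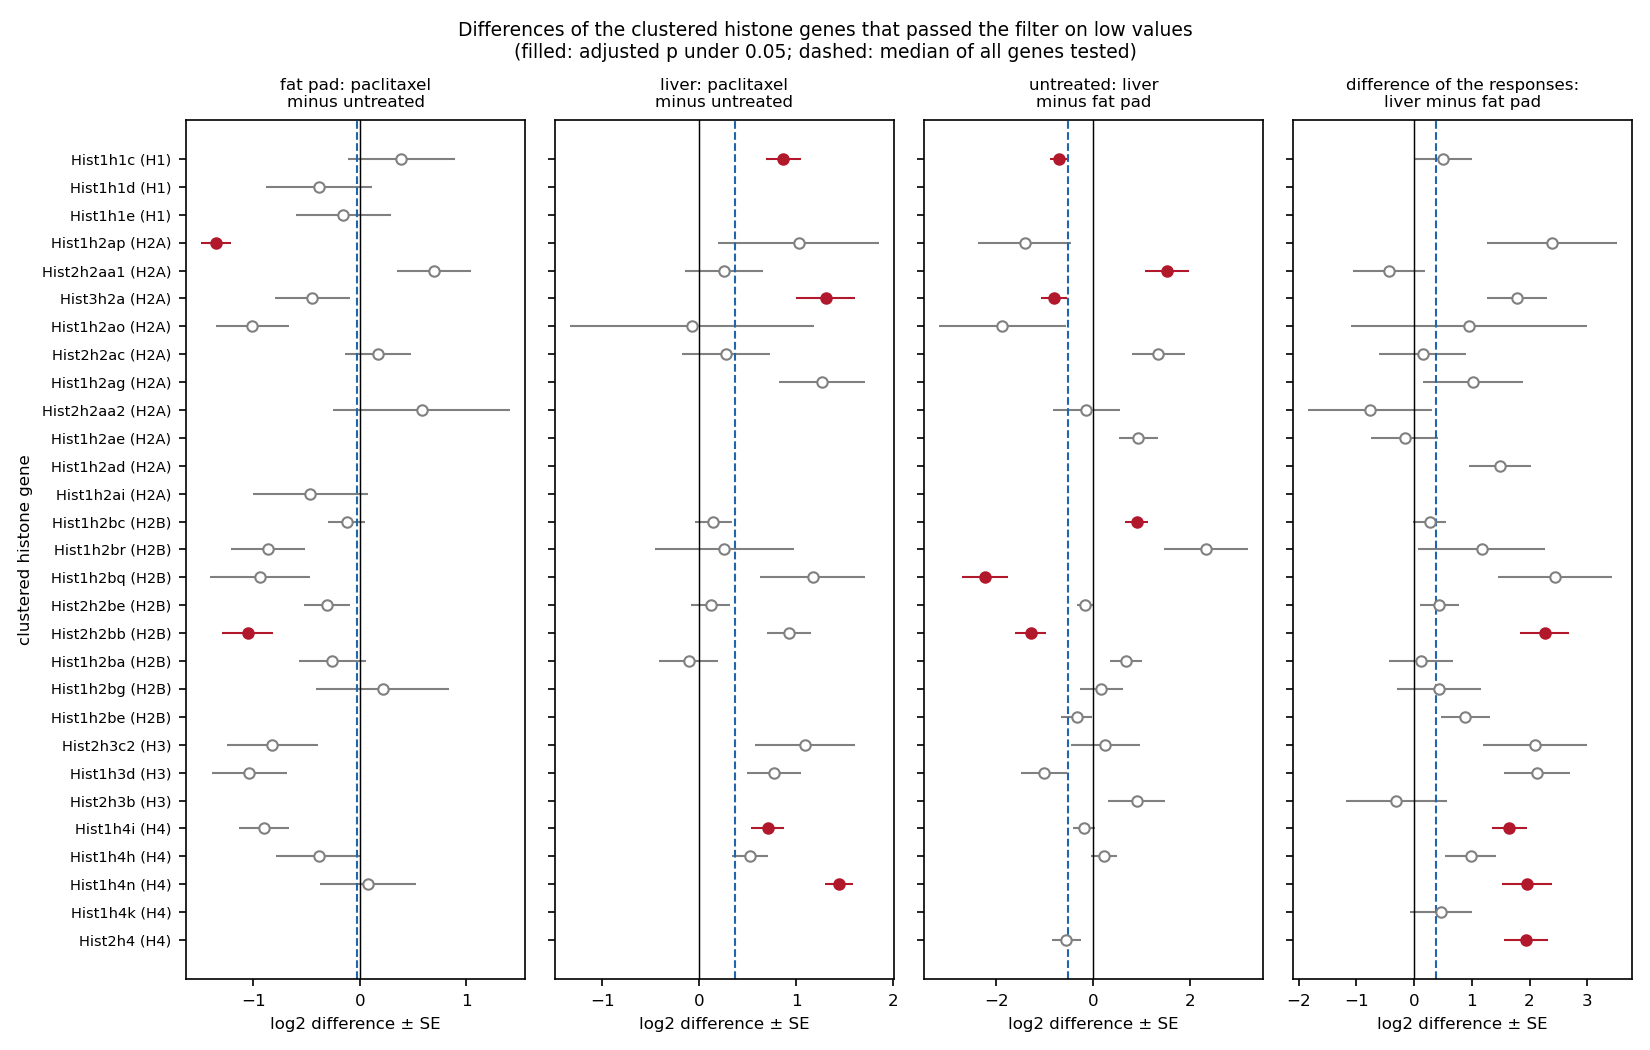
Log2 differences with standard errors for the members that passed the filter, by histone type, in the 4 comparisons, with called members filled in red and the median of all genes dashed. Called members lie left of 0 in the fat pad response, right of 0 in the liver response and right of 0 in the difference of the responses.

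H2A genes held the largest share, and Hist1h2ap alone had the highest mean of any member, 315 TPM. Hist1h2ap (ENSMUSG00000094777.2, chr13:21833026-21833507, minus strand, 1 exon) was at 391, 535, 568.2, 199 and 166 TPM in post_Liver, and at 375, 698, 252, 30.7 and 50.9 TPM in pre_Liver. It was at 197, 142 and 164 TPM in post_SC, and at 433, 455 and 385 TPM in pre_SC. Each treated fat pad library was below each untreated one, while the liver groups overlapped and spread widely. Within the fat pad the level fell with a log2 difference of −1.35 ± 0.14 (SE, adjusted p = 0.0067), and it was called with any 1 of the 6 libraries left out, at an adjusted p of 0.0109 to 0.0404. In a fit that shares 1 spread over all 4 groups the adjusted p was 0.664. In the liver the log2 difference was 1.03 ± 0.83 (adjusted p = 0.351), and −0.31 without pre_Liver 4 and 5. The difference between the responses, 2.38 ± 1.12, was not called (adjusted p = 0.202).

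Hist1h2ao, the copy with the same coding sequence, was named after its values were seen. It was listed at 0.921, 40.2, 61.2, 0 and 2.04 TPM in post_Liver, and at 23.3, 40.6, 16.7, 0 and 0 TPM in pre_Liver. It was at 19.9, 6.84 and 11.9 TPM in post_SC, and at 21.4, 31.5 and 22.6 TPM in pre_SC. In 5 liver libraries the gene was thus at or near 0 and in the others it was not, a split that crossed the treatment groups. Hist1h2ao took 4.60 to 9.72% of the pair's sum in the 11 libraries where it was above 5 TPM. The pair summed as 1 gene left the number of members called unchanged in each comparison.

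Hist2h2aa1, an H2A gene on chromosome 3, was at 99.3, 79.8, 117, 206 and 155 TPM in post_Liver, and at 94.9, 43.2, 90.0, 163 and 198 TPM in pre_Liver. It was at 33.7, 67.2 and 83.0 TPM in post_SC, and at 28.9, 49.0 and 30.3 TPM in pre_SC. The highest values stood in liver libraries 4 and 5 of both treatment groups. Before treatment it was higher in the liver by 1.52 ± 0.46 on the log2 scale (adjusted p = 0.0283), with groups that overlapped, and leaving out pre_Liver 3 or 4 or any pre_SC library gave an adjusted p of up to 0.103. It was 1.001, and not called, with a replicate block (adjusted p = 0.0699) and in the first batch of the adjustment alone (adjusted p = 0.0526), and as low as 0.52 over all alternatives. Hist2h2aa2, its identical copy, alternated between 0 and values up to 4.59 TPM. Neither response was called for Hist2h2aa1, at log2 differences of 0.70 ± 0.35 in the fat pad and 0.26 ± 0.40 in the liver, the second being −0.14 with median-of-ratios scaling.

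Hist3h2a, an H2A gene on chromosome 11, was at 50.7, 56.4, 64.7, 24.9 and 72.5 TPM in post_Liver, and at 27.3, 26.3, 13.01, 17.8 and 16.3 TPM in pre_Liver. It was at 28.9, 39.5 and 13.2 TPM in post_SC, and at 35.3, 38.6 and 29.1 TPM in pre_SC. The liver groups overlapped only through post_Liver 4. It rose in the liver with paclitaxel by 1.31 ± 0.30 (adjusted p = 0.0431), and before treatment it was lower in the liver, at a log2 difference of −0.80 ± 0.27 (adjusted p = 0.0382). Leaving out single libraries gave adjusted p-values of up to 0.132 for the first (without any of post_Liver 1, 2, 3 and 5 or pre_Liver 3, 4 and 5) and up to 0.116 for the second (without pre_Liver 3, 4 or 5 or any pre_SC library). With median-of-ratios scaling neither was called, at 0.93 (adjusted p = 0.0681) and −0.30 (adjusted p = 0.253). The first was not called without both pre_Liver 4 and 5 (adjusted p = 0.298), with post_Liver 2 and 3 averaged (0.105) or with no filter (0.0512), nor the second with scaling without the hepatocyte genes (−0.54, adjusted p = 0.0799), with a replicate block (0.0747) or in the first batch of the adjustment alone (0.1). Where it overlaps Trim17 on the same strand, reads of the 2 genes cannot be told apart.

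Of 8 H2B genes tested between untreated sites, 1 was called higher in the liver and 2 lower. Hist1h2bc was at 94.5, 111, 115, 137 and 115 TPM in post_Liver, and at 92.2, 69.8, 112, 120 and 130 TPM in pre_Liver. It was at 45.6, 48.0 and 54.5 TPM in post_SC, and at 44.8, 67.2 and 51.4 TPM in pre_SC. Every liver library was above every fat pad library, and before treatment the log2 difference was 0.90 ± 0.24 (adjusted p = 0.0192). It was not called without pre_SC 1 or pre_SC 3 (adjusted p up to 0.0862), nor with a replicate block (adjusted p = 0.0731). Its paclitaxel responses were −0.12 ± 0.17 in the fat pad and 0.15 ± 0.19 in the liver, the second −0.25 with median-of-ratios scaling, and neither was called.

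Hist1h2br and Hist1h2bq encode the same H2B coding sequence and lie in 2 similar arrangements on chromosome 13, each running away from an H2A neighbor: Hist1h2br from Hist1h2ap, and Hist1h2bq from Hist1h2ao. Hist1h2br was at 20.2, 11.8, 13.9, 52.2 and 49.0 TPM in post_Liver, and at 18.3, 2.31, 15.5, 54.3 and 62.6 TPM in pre_Liver. It was at 0.376, 1.88 and 1.86 TPM in post_SC, and at 2.26, 3.42 and 3.72 TPM in pre_SC. Libraries 4 and 5 were the highest in both liver groups, and all fat pad libraries were under 4 TPM. The difference between untreated sites was 2.32 ± 0.86 and was not called (adjusted p = 0.0518). Hist1h2bq was at 22.6, 1.98, 2.11, 7.38 and 1.43 TPM in post_Liver, and at 1.47, 3.85, 0.614, 0.0198 and 0.209 TPM in pre_Liver. It was at 2.46, 1.74 and 9.59 TPM in post_SC, and at 8.72, 7.71 and 7.25 TPM in pre_SC. Each untreated liver library was below each untreated fat pad library, and Hist1h2bq was lower in the liver at a log2 difference of −2.24 ± 0.47 (adjusted p = 0.00878; at most 0.042 with any 1 library left out). The sums of both genes were 42.8, 13.8, 16.03, 59.6 and 50.4 TPM in post_Liver, 19.8, 6.16, 16.1, 54.3 and 62.8 TPM in pre_Liver, 2.84, 3.62 and 11.5 TPM in post_SC, and 10.97, 11.13 and 10.97 TPM in pre_SC. As a sum the pair was thus above the untreated fat pad level in 4 of the 5 untreated liver libraries, the opposite of what Hist1h2bq shows on its own.
The 150 bases before the annotated start of Hist1h2br lie between it and Hist1h2ap, which is read in the other direction. They are printed from RefSeq (GRCm38.p6) with CCAAT, a motif bound by NF-Y, in capitals on either strand.
Hist1h2br, chr13:21833593-21833742, plus strand: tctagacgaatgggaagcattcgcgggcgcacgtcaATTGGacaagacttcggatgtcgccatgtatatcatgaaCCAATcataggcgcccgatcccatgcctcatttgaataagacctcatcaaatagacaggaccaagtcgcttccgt

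Hist2h2bb, an H2B gene on chromosome 3, was the only member called in 3 comparisons. It was at 2.43, 4.199, 5.68, 3.42 and 3.798 TPM in post_Liver, and at 1.49, 2.44, 0.763, 1.07 and 0.209 TPM in pre_Liver. It was at 1.18, 1.08 and 2.13 TPM in post_SC, and at 3.63, 4.33 and 4.13 TPM in pre_SC. Treated libraries were all below untreated ones in the fat pad, while in the liver only post_Liver 1 and pre_Liver 2 overlapped. It fell in the fat pad by 1.05 ± 0.24 on the log2 scale (adjusted p = 0.0424), with an adjusted p of up to 0.148 when a library other than post_SC 3 was left out. Nor was it called with no filter (adjusted p = 0.0521), with a replicate block (0.0874) or in a fit of all 4 groups (0.216). In the liver the difference of 0.93 ± 0.23 was not called (adjusted p = 0.0515). The difference between the responses was 2.27 ± 0.42 (adjusted p = 0.0133), and it was called with any 1 of the 16 libraries left out (adjusted p at most 0.0485) and with median-of-ratios scaling. Before treatment the log2 difference of −1.29 ± 0.32 was a lower level in the liver (adjusted p = 0.0156), and up to 0.0584 without a pre_SC library. Its promoter is printed from RefSeq (GRCm38.p6), with capitals for CCAAT, for ATTTGCAT, the octamer known from H2B promoters, and for TATAA, the core of a TATA box.
Hist2h2bb, chr3:96269600-96269699, plus strand: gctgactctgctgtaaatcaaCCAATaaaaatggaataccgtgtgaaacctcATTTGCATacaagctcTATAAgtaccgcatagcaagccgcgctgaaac

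Of the H1 genes, Hist1h1c alone averaged over 1 TPM. It encodes a linker histone and was at 47.4, 57.5, 61.6, 41.3 and 67.3 TPM in post_Liver, and at 28.3, 28.6, 23.2, 38.1 and 27.6 TPM in pre_Liver. It was at 30.9, 49.9 and 153 TPM in post_SC, and at 46.3, 48.7 and 46.4 TPM in pre_SC. All treated liver libraries were above all untreated ones, and post_SC 3 stood far above every other library. The rise in the liver was 0.87 ± 0.18 on the log2 scale (adjusted p = 0.0289). It was not called with median-of-ratios scaling (0.48, adjusted p = 0.204), with scaling without the hepatocyte genes (0.71, adjusted p = 0.0586), in a fit of all 4 groups (0.0556), with post_Liver 2 and 3 averaged (0.081) or without both pre_Liver 4 and 5 (0.105), nor without any of pre_Liver 1, 3 and 5 or post_Liver 1, 2, 3 and 5 (adjusted p up to 0.095). The fat pad difference was 0.39 ± 0.50 (adjusted p = 0.645), and −0.26 without post_SC 3. Before treatment Hist1h1c was lower in the liver, at a log2 difference of −0.71 ± 0.18 (adjusted p = 0.0169), a difference of −0.20 with median-of-ratios scaling (adjusted p = 0.558) and −0.44 without the hepatocyte genes in the scaling (adjusted p = 0.093), and without a pre_SC library the adjusted p was up to 0.0638. Hist1h1d, the next H1 gene, was at 0 to 2.40 TPM across the libraries.

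H3 genes were low throughout, and no H3 gene was called. Hist2h3c2 was at 10.8, 5.85, 8.14, 18.8 and 20.7 TPM in post_Liver, and at 1.33, 4.04, 0.912, 9.95 and 14.8 TPM in pre_Liver. It was at 1.41, 3.16 and 0.480 TPM in post_SC, and at 2.65, 5.58 and 2.42 TPM in pre_SC. The liver groups overlapped, at a log2 difference of 1.09 ± 0.51 (adjusted p = 0.169). Hist1h3d was at 2.67, 4.16, 3.47, 2.05 and 2.45 TPM in post_Liver, and at 3.08, 1.72, 0.372, 0 and 0.341 TPM in pre_Liver. It was at 1.64, 0.360 and 0.614 TPM in post_SC, and at 1.56, 3.65 and 3.18 TPM in pre_SC. Its difference between the responses was 2.12 ± 0.57 (adjusted p = 0.0584).

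H4 genes gave 3 of the 4 calls in the difference between the responses. The summed level of 10 shared H4 genes was 34.3, 38.0, 40.3, 39.0 and 38.0 TPM in post_Liver, and 22.1, 19.7, 14.5, 21.7 and 19.3 TPM in pre_Liver. It was 15.9, 13.1 and 11.2 TPM in post_SC, and 19.9, 24.5 and 20.97 TPM in pre_SC. Both pairs of groups were separate at this scaling, with the treated libraries above in the liver and below in the fat pad. Of all single genes tested, 5.16% were so separate in the liver and 18.7% in the fat pad. The library factors of median-of-ratios scaling were 0.643 and 0.591 for pre_Liver 4 and 5, against 1.114 and 1.182 for post_Liver 1 and 2. Divided by these factors, the H4 sums of the liver groups overlap.

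Hist1h4i, the highest H4 gene, was at 16.9, 18.2, 17.2, 20.3 and 19.6 TPM in post_Liver, and at 14.7, 9.02, 8.02, 11.9 and 10.0 TPM in pre_Liver. It was at 7.50, 6.59 and 4.24 TPM in post_SC, and at 10.46, 14.7 and 11.2 TPM in pre_SC. Groups did not overlap at either site. The difference between the responses was 1.65 ± 0.30 on the log2 scale (adjusted p = 0.0114), and it was called with any 1 of the 16 libraries left out (adjusted p at most 0.0408). With median-of-ratios scaling it was 1.21 (adjusted p = 0.0929). Within the liver the rise was 0.71 ± 0.17 (adjusted p = 0.0456), and it was not called without any of post_Liver 1, 2, 3 and 5 or pre_Liver 3, 4 and 5 (adjusted p up to 0.141). The liver rise was not called with median-of-ratios scaling (0.35, adjusted p = 0.328), with scaling without the hepatocyte genes (0.56, adjusted p = 0.0895), with no filter (0.0593), with post_Liver 2 and 3 averaged (0.104) or without both pre_Liver 4 and 5 (0.234). Within the fat pad the difference of −0.90 ± 0.24 was not called (adjusted p = 0.0624). Hist1h4h, next in level, was at 7.49, 7.57, 6.46, 9.96 and 7.97 TPM in post_Liver, and at 2.78, 6.66, 4.15, 6.23 and 5.23 TPM in pre_Liver, and its liver difference of 0.53 ± 0.19 was not called (adjusted p = 0.107).

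Hist1h4n (ENSMUSG00000069305.3, chr13:21831767-21832196, minus strand, 1 exon) was at or near 0 in untreated liver tumors. It was at 2.86, 3.26, 4.00, 4.09 and 4.09 TPM in post_Liver, and at 0.516, 0.210, 0, 0 and 0 TPM in pre_Liver. It was at 0.451, 1.17 and 1.69 TPM in post_SC, and at 0, 1.61 and 1.76 TPM in pre_SC. The liver groups were far apart, and the fat pad groups overlapped. Levels this low rest on values deposited with 2 decimals, 1.46 to 2.18 FPKM (fragments per kilobase of transcript, scaled to library size) in post_Liver and 0 to 0.28 FPKM in pre_Liver. The liver log2 difference was 1.44 ± 0.15 (adjusted p = 0.00329), a size set by the added 1, since it was 3.73 with 0.1 added. The gene passed the filter through its treated libraries and was under it when any 1 of them was left out. The gene was also under it with median-of-ratios scaling and with post_Liver 2 and 3 averaged, so those alternatives give no test. It was called without any 1 untreated library (adjusted p at most 0.0177). The difference between the responses was 1.96 ± 0.44 (adjusted p = 0.0308). It was not called without pre_SC 2 or 3, post_SC 1 or 2 or pre_Liver 3, 4 or 5 (adjusted p up to 0.107), nor without both pre_Liver 4 and 5 (adjusted p = 0.0999). With 0.1 added in place of 1 it was 3.71 and not called (adjusted p = 0.103). In its transcript, 80.7% of the stretches of 100 bases recur in Hist1h4m, a gene with no row in these tables.

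Hist2h4 was listed at 0 in all 3 post_SC libraries, and at 1.80, 1.496 and 1.62 TPM in pre_SC. It was at 1.59, 1.05, 1.19, 1.92 and 2.64 TPM in post_Liver, and at 0.552, 0.248, 0.503, 1.13 and 2.09 TPM in pre_Liver. The fat pad groups were separate and the liver groups overlapped. Its mean was too low for the filter in either response. The difference between the responses was 1.94 ± 0.38 (adjusted p = 0.0181), and it was not called without pre_SC 1 or 3 (adjusted p up to 0.0591) or with median-of-ratios scaling (adjusted p up to 0.101 over all alternatives).

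Promoters of 54 members were matched in RefSeq (GRCm38.p6) and searched on both strands. H4 promoters stood out by GGTCCG, the end of the H4 subtype-specific element. In the 250 bases before the start it was found in 8 of 11 H4 promoters and in 2 of the other matched members, beside 6.82% of all 27025 promoters. CCAAT was found in 45 of 54 members, among them all 16 H2A and all 13 H2B genes matched but only 3 of the 11 H4 genes, beside 34.5% of all promoters. ATTTGCAT was found in 6 H2A and 5 H2B genes and in no other type, beside 1.61% of all promoters. TATAA in the last 50 bases before the start was found in 24 members, beside 6.7% of all promoters. The promoters of Hist1h4n and Hist1h4i, which were both called in the liver response, share a run of 38 bases around GGTCCG and TATAA. Shared runs were sought in this pair only. Hist1h4k, Hist1h4d and Hist4h4 also hold both motifs, but they were under the filter in the liver response. Hist1h4h, the other H4 gene tested there, holds neither motif. Its liver difference was also positive, at 0.53 ± 0.19, and was not called (adjusted p = 0.107). The part of these motifs in the response was not tested. Both motifs are in capitals below.
Hist1h4n, chr13:21832198-21832297, minus strand: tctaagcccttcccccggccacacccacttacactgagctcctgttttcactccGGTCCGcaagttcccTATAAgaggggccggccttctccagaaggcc
Hist1h4i, chr13:22041363-22041462, minus strand: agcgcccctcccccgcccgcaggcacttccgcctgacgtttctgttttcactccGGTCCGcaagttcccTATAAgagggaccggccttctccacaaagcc

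**Figure D4:**
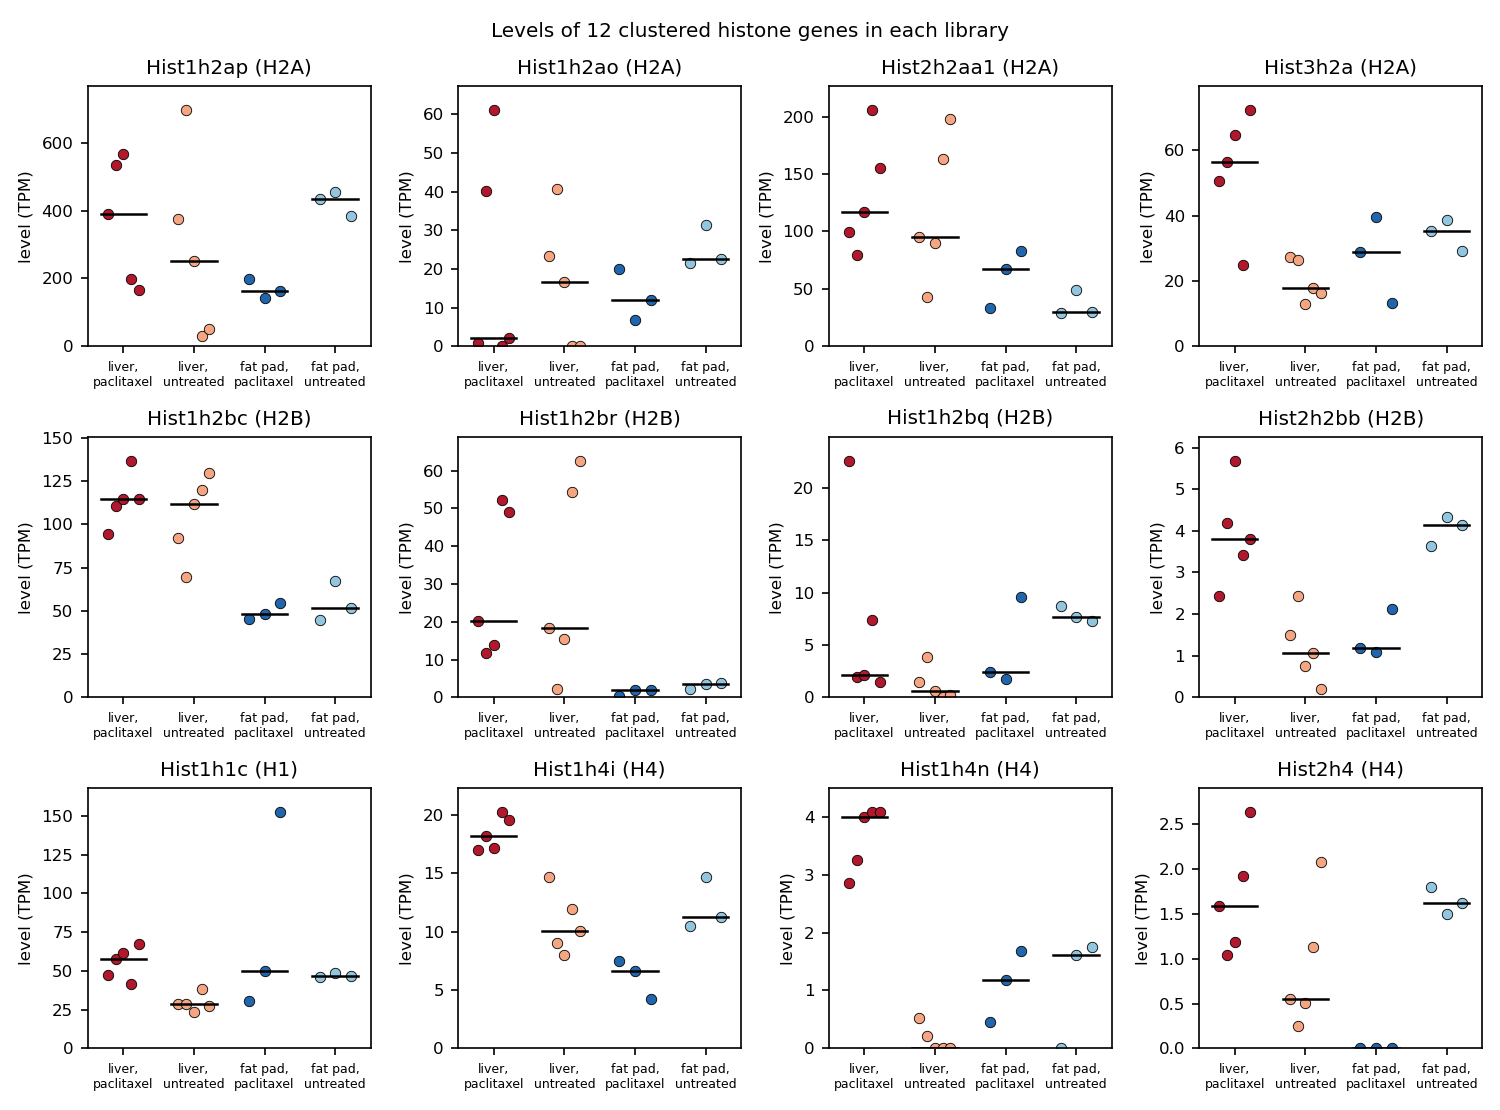
Level in TPM of 12 members in each library, by group, with a line at each group's median. For Hist1h4n the 5 liver libraries with paclitaxel lie between 2.86 and 4.09 TPM, above all 5 without it, and for Hist1h2ap the 3 fat pad libraries with paclitaxel lie between 142 and 197 TPM, below all 3 without it.

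Few other genes of the histone pathway were called in the responses, near the shares over all genes tested. With paclitaxel these were 4.29% lower and 2.68% higher in the fat pad, and 1.41% lower and 2.24% higher in the liver. Among 20 genes for histone transcription and 3′ end processing, 0 were higher and 1 lower with paclitaxel in the fat pad (Sympk, a scaffold of the cleavage complex, −0.85 ± 0.19, adjusted p = 0.0448). In the liver 0 of 19 were called. Slbp, the stem-loop binding protein, was at 74.5, 76.4, 77.7, 40.3 and 47.4 TPM in post_Liver, and at 45.6, 72.1, 38.3, 19.0 and 17.9 TPM in pre_Liver. It was at 74.2, 52.4 and 34.3 TPM in post_SC, and at 71.4, 58.4 and 63.7 TPM in pre_SC. Both pairs of groups overlapped, with log2 differences of 0.81 ± 0.38 in the liver (adjusted p = 0.169) and −0.32 ± 0.26 in the fat pad (adjusted p = 0.444). Npat, the activator of clustered histone genes, differed by 0.74 ± 0.26 in the liver (adjusted p = 0.109) and by 0.06 ± 0.27 in the fat pad (adjusted p = 0.909). Before treatment Npat was lower in the liver, at −1.16 ± 0.31 (adjusted p = 0.0199), 1 of 5 genes called lower there among 19 tested of that list. Of all genes tested between untreated sites, 33.5% were called lower and 15.4% higher in the liver. Of 14 genes for cleavage and polyadenylation, which give messengers their tail, 0 were called in either response. Before treatment 10 were lower and 1 was higher in the liver, at a median log2 difference of −0.80. The median of all genes was −0.52 there, and −0.04 with median-of-ratios scaling.

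Genes of the cell cycle are given beside the members, since clustered histone genes are known mainly for expression in S phase. Of 26 DNA replication genes, 3 were lower and 0 higher with paclitaxel in the fat pad, with a median log2 difference of −0.44. They were the helicase subunit Mcm5 (−0.78 ± 0.14, adjusted p = 0.0274), the ligase Lig1 (−0.77 ± 0.15, adjusted p = 0.0313) and the transcription factor E2f1 (−0.65 ± 0.14, adjusted p = 0.0383). Of 18 mitosis genes 10 were lower and 0 higher there, among them Bub1b, Ccnb1 and Aurkb at −1.31 ± 0.17, −0.94 ± 0.15 and −0.96 ± 0.16 (adjusted p = 0.0115, 0.0182 and 0.0199). In the liver 0 of 26 and 0 of 18 were called, at medians of 0.67 and 0.83. The summed DNA replication level was 1579, 1104, 1118, 656 and 807 TPM in post_Liver, and 901, 1494, 650, 244 and 318 TPM in pre_Liver. It was 1221, 912 and 869 TPM in post_SC, and 1394, 1278 and 1217 TPM in pre_SC. The libraries pre_Liver 4 and 5 were lowest in this sum and in Hist1h2ap, and pre_Liver 2 was highest in Hist1h2ap and second to post_Liver 1 in this sum. The part of S phase content in the histone results was not tested.

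Other histone genes, named for variants made largely outside S phase, were read beside the clustered ones as a list of 11. H2afz, which encodes H2A.Z, was at 509, 394, 406, 298 and 302 TPM in post_Liver, and at 311, 434, 237, 112 and 141 TPM in pre_Liver, at a log2 difference of 0.77 ± 0.37 (adjusted p = 0.174). H3f3a and H3f3b, which encode H3.3, differed by 0.67 ± 0.23 and 0.86 ± 0.52 in the liver (adjusted p = 0.103 and 0.247) and by 0.26 ± 0.12 and 0.51 ± 0.15 in the fat pad (adjusted p = 0.208 and 0.09). H2afx, which encodes H2A.X and is known to give messengers both with a tail and with a stem-loop, differed by −1.002 ± 0.274 in the fat pad (adjusted p = 0.0687). Cenpa, the centromere H3, was called lower in the fat pad, at −0.79 ± 0.13 (adjusted p = 0.0198), and H2afj higher in the liver, at 0.64 ± 0.15 (adjusted p = 0.0431). These were the only calls among the 11 genes in the responses. In the fat pad 1 of 11 was lower, beside 2 of 22 clustered members and 4.29% of all genes. In the liver 1 of 11 was higher, beside 4 of 18 clustered members and 2.24% of all genes. Of 20 histone chaperones, 2 were lower in the fat pad (Chaf1a and Ipo4) and 0 were called in the liver.

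Markers of host cells and of carcinoma cells differed between the liver groups as well. The hepatocyte sum was 59269, 7959, 6729, 163666 and 58981 TPM in post_Liver, and 114584, 61403, 181133, 251811 and 254712 TPM in pre_Liver, with 3 of 40 genes called lower and 0 higher. A sum of 12 neutrophil genes was 3796 to 22668 TPM in post_Liver and 201 to 1623 TPM in pre_Liver, with 12 of 12 called higher. A sum of 16 carcinoma epithelium genes was 5058 to 8140 TPM in post_Liver and 1182 to 5203 TPM in pre_Liver, with 1 of 16 called higher (Lcn2). Among fat pad tumors the neutrophil sum was 106 to 115 TPM in post_SC and 89.3 to 323 TPM in pre_SC, with 0 of 9 called. The part of these cells in the histone differences was not tested. With the hepatocyte genes left out of the scaling, 2 members were called in the liver response and 4 in the difference between the responses.

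**Figure D5:**
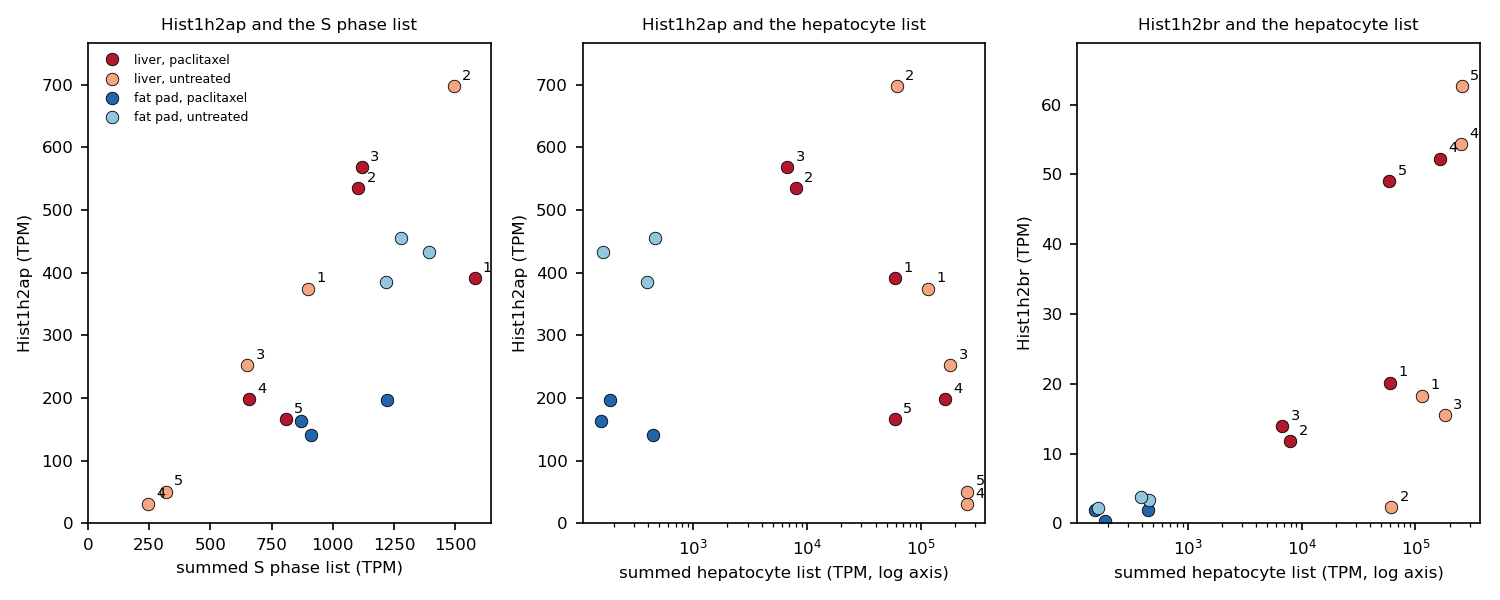
Hist1h2ap against the summed S phase list and the summed hepatocyte list, and Hist1h2br against the hepatocyte list, with 1 point per library in TPM, log axes for the hepatocyte sums and replicate numbers beside the liver points. The libraries pre_Liver 4 and 5 combine the lowest Hist1h2ap levels, 30.7 and 50.9 TPM, with the highest hepatocyte sums and the highest Hist1h2br levels, 54.3 and 62.6 TPM.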

How the data were processed

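RNA of 16 digested and frozen 4T1 tumors was selected on oligo(dT) beads and sequenced, per the labels' protocols. fastp, StringTie and the build GRCm38/mm10 appear in the submitters' processing notes, with no version or role. Units were inferred from the values. The authors deposited FPKM with 2 decimals for 10 liver libraries (17884 rows) and TPM for 6 fat pad libraries (17703 rows). A further table, of the 8 untreated libraries, holds another unit: TPM plus a constant per gene and batch, which left values below 0 in 2376 genes and was −198.8 TPM for Hist1h2ap. The constant had the same sign in pre_Liver 1, 2 and 3 and pre_SC, and the opposite sign in pre_Liver 4 and 5. The design had assumed normalized values there, so this constant was removed before untreated sites were compared (17398 genes).

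The liver response was fitted on FPKM, the fat pad response on TPM, and their difference on TPM over 17426 shared genes. limma 3.58.1 (R 4.3.3) was run on log2(value + 1) with a mean-variance trend, a mean filter of 1, group as the only term and Benjamini-Hochberg adjustment. Fold changes of low genes are therefore understated. limma was also run on simulated data. Tables were made with Python 3.11.15, pandas 2.3.3, NumPy 2.4.6 and matplotlib 3.10.9. Names turned into dates (22 and 24) and 1 name on more than 1 row were left out. Hyphens were restored, and an X before a leading digit removed, to match the liver table.

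Members and gene lists were chosen with earlier results of these data known. Named were Hist1h4n, the 2 members of each type with the highest mean, each member called in a comparison and, of each list described, up to 3 called genes in order of p plus Slbp, Npat, H2afx, H2afz, H3f3a, H3f3b and Cenpa. Other lists were hepatocyte, neutrophil, carcinoma epithelium, macrophage, T cell, B cell, erythroid, endothelium and fibroblast markers, and 20 RNAs without a poly(A) tail, of which 0 are in the tables. Of the last 6 cell lists, 4 endothelium genes were called higher and 1 lower in the fat pad, 1 fibroblast gene was called lower there, and 0 were called in the liver. Alternatives were pseudocounts, filters, scalings, a replicate block, single libraries left out, and pooled or summed libraries and genes. Sequences came from GENCODE M21 and RefSeq.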

Additional observations from a re-analysis of the deposited data

Results flagged for a closer look

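The paclitaxel response differed between the sites by the interaction test for 4 H4 and H2B genes, each at a liver response above that of the fat pad. The log2 difference of the responses was 1.65 for Hist1h4i (adjusted p = 0.0114), 2.27 for Hist2h2bb (0.0133), 1.94 for Hist2h4 (0.0181) and 1.96 for Hist1h4n (0.0308), by limma. The values behind Hist1h4n and Hist2h4 include libraries listed at 0.

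1 library lay far from the others of its group. Hist1h2bq was at 22.6 TPM in post_Liver 1, against 7.38 TPM or less in the other libraries of that group. Chance flags about 1 in 20 groups, and 42 groups of 5 libraries were examined, covering the named members and the sums by type.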

How the results depend on the processing

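In the fat pad response, 2 members were called, against 4 with no filter, 1 with a filter of mean 5, 1 with a replicate block and 1 in a fit of all 4 groups. In the liver response, 4 were called, against 2 with no filter, 0 with median-of-ratios scaling, 2 with scaling without the hepatocyte genes, 6 with a replicate block, 6 in a fit of all 4 groups, 5 with TPM over all genes of the liver table, 0 with post_Liver 2 and 3 averaged and 1 without pre_Liver 4 and 5 together. The last 2 settings were chosen after seeing the data. Hist1h4n was under the filter with median-of-ratios scaling and with post_Liver 2 and 3 averaged, so the counts there do not test it. In the difference of the responses, 4 were called, against 1 with a filter of mean 5, 2 with median-of-ratios scaling and 9 with a replicate block. Leaving out 1 library gave 1 to 3, 0 to 7, 1 to 9 (6 in the full fit) and 2 to 6 calls in the fat pad, the liver, the untreated sites and the difference of the responses. The mean summed level in pre_SC was 594 TPM with median-of-ratios scaling and 689 TPM without it. In post_SC it was 390 TPM with that scaling and 440 TPM without it. In the liver it was 821.8 TPM in post_Liver and 805.5 TPM in pre_Liver with that scaling, against 883 and 659 TPM without it. The causes were not tested.

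The labels tie no replicate number to a mouse or batch, and pairing was taken as present only where each same-numbered pair's deviations correlated above 0.1. They correlated at 0.129, −0.158 and −0.113 in the fat pad, and at −0.12, 0.677, −0.014, 0.746 and 0.261 in the liver, over 0.1 in 1 of 3 and 3 of 5 pairs. In the liver 3 of 10 libraries correlated best with their own number, and the replicate block gave 2435 higher and 1021 lower genes, against 291 and 183 without it.

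Signs turned in at least 1 alternative for 6 members in the fat pad, 8 in the liver, 6 between untreated sites and 7 in the difference of the responses, none of them called. Those chosen by the naming rule follow, which leaves out 3, 4, 4 and 5. In the fat pad they were Hist1h4n, Hist1h1c and Hist1h2bc, at −0.40 to 0.32, −0.26 to 0.88 and −0.25 to 0.036 with 1 library left out. In the liver they were Hist1h2ap (−0.31 without pre_Liver 4 and 5), Hist2h2aa1 (−0.14 with median-of-ratios scaling, −0.053 to 0.49 with 1 library left out), Hist1h2bc (−0.25 with median-of-ratios scaling, −0.022 without the hepatocyte genes) and Hist1h2br (−0.13 with median-of-ratios scaling, −0.34 to 0.64 with 1 library left out). Between untreated sites they were Hist1h4i (0.29 with median-of-ratios scaling, 0.062 without the hepatocyte genes) and Hist2h3c2 (−0.63 with the replicate block and in the first batch of the adjustment alone, −0.14 to 0.61 with 1 library left out, −0.26 in the table as deposited). In the difference of the responses they were Hist2h2aa1 (0.088 without pre_Liver 4 and 5) and Hist1h2bc (−0.19 with median-of-ratios scaling). Depth is unknown, so no counting error can be given for members near 0.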
